A study of Mus musculus with 12 samples.

Results

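The cytosolic ribosomal proteins are the proteins of the large (Rpl, Rplp) and small (Rps, Rpsa) subunits of the ribosomes that translate nuclear mRNA. The genes were taken by name: every probe set with a single gene symbol that starts with Rpl or Rps followed by a digit, or that is Rplp0, Rplp1, Rplp2 or Rpsa, with the Rps6k kinases left out. This gave 49 of 12422 probe sets, for 35 genes, 17 of the large and 18 of the small subunit. Of these, 31 probe sets for 25 genes were bright enough to be tested, among 6400 features in all. The array carries 39 further probe sets that match a ribosomal protein gene together with other genes, and these are not members.

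RNA of normal intestine and of intestinal tumors was hybridised to Affymetrix MG_U74Av2 oligonucleotide arrays, with 1 array per sample and 6 arrays per tissue. All samples came from male mice, 91 days old, that carry the Min mutation in 1 copy of Apc (Min/+), a model in which adenomas form in the gut. Each tissue was represented by diets #1, #2 and #3, whose makeup the labels do not give, and within each diet by a Dnmt+/- and a Dnmt+/+ sample, so the heterozygous and wild type genotypes of this DNA methyltransferase gene both carried Min. A sample code shared by 1 normal and 1 tumor array paired them. The strain, the number of animals behind a sample and the part of the intestine are not given in the labels. The p-values therefore measure the spread between these samples, and the number of arrays limits the precision.

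A ribosome holds ribosomal RNA and a set of proteins that are made in step with it and assembled in the nucleolus. Dividing cells, such as those of the intestinal crypts, are known for high ribosome production, and the transcription factor Myc, a target of Wnt signalling, drives it. Messenger RNAs of ribosomal proteins begin with a tract of pyrimidines, the 5′ TOP, through which the kinase mTOR controls their translation. Arrays of whole tissue measure RNA level only, and they cannot tell fewer cells of a type from less RNA per cell.

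RefSeq promoter windows of build GRCm38.p6, from 250 bases before to 50 after the transcription start, were at hand for 28 of the 35 genes. The stretches shown run from 60 bases before to 30 after the start, for the 5 genes that were later found higher both in tumors and in diet #3, and for Rps4x, which passed neither test. Capitals mark a pyrimidine run, defined as a C followed by at least 5 pyrimidines on the gene's strand, between 20 bases before and 50 after the start; the run of Rps7 goes on past the stretch shown. They lie at chr7:45128716-45128805 for Rpl13a, chr17:27635215-27635304 for Rps10, chr17:33955636-33955725 for Rps18, chr12:28635924-28636013 for Rps7 and chrX:102189362-102189451 for Rps4x, all on the minus strand, and at chr2:26910747-26910836 on the plus strand for Rpl7a.
Rpl13a: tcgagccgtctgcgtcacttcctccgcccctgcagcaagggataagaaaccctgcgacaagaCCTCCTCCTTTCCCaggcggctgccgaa
Rps10: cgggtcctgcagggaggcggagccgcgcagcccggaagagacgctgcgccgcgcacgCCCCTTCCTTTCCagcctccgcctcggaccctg
Rps18: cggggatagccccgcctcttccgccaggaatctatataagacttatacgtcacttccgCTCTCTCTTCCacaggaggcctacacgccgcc
Rps7: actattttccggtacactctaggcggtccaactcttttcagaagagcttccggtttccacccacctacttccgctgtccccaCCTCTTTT
Rpl7a: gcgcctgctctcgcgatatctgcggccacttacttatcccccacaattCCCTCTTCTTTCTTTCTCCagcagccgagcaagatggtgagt
Rps4x: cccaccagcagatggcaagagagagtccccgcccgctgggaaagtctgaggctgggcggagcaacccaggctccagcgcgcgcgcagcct
Such a run lay in the windows of 22 of the 28 genes (78.6%), against 48.5% of the 27025 genes with a window. The motif CCGGAAG, read on both strands, is the core that factors of the ETS family such as GABP bind, and it was found in 12 of the 28 genes (42.9%), against 9.93% of all genes. CTTTCC on both strands was found in 17 of 28 genes (60.7%), against 29.3%, and it can lie inside a pyrimidine run. TATAAA, the core of the TATA box, was found in 14.3% of them and in 15.7% of all genes. The run was present in 12 of the 15 genes with a window that were higher in tumors and in 10 of the other 13. CCGGAAG was present in 6 of the 15 and 6 of the 13. Of those 13, only Rps27, Rpl22, Rpsa, Rpl41, Rpl7l1 and Rps4x were tested for tissue, and the rest were too dim. Among these tested genes the run was in Rps27, Rpsa and Rpl41, and CCGGAAG in Rpsa and Rpl41. All the untested ones had a run. A match is a match of letters only, and no test was run on these shares.

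Ribosomal protein transcripts were higher in tumors than in normal intestine. With limma on quantile-normalized log2 intensity and a Benjamini-Hochberg adjusted p under 0.05, 17 of the 25 genes were higher, 1 was lower and 7 passed in neither direction. Over all features 18.2% were higher and 16.9% lower. When each array was scaled to its median in place of quantile normalization, 5 of 26 genes were higher and 1 lower, among 13.2% and 24.2% of all features. The median difference of the 25 genes was 0.38 on the log2 scale, where the median of all features was 0.0015. In all 6 code pairs the tumor array was the higher for 18 of the 25 genes (17.4% of all features), and every tumor array exceeded every normal array for 5 of them (6.17% of all features).

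**Figure D1:**
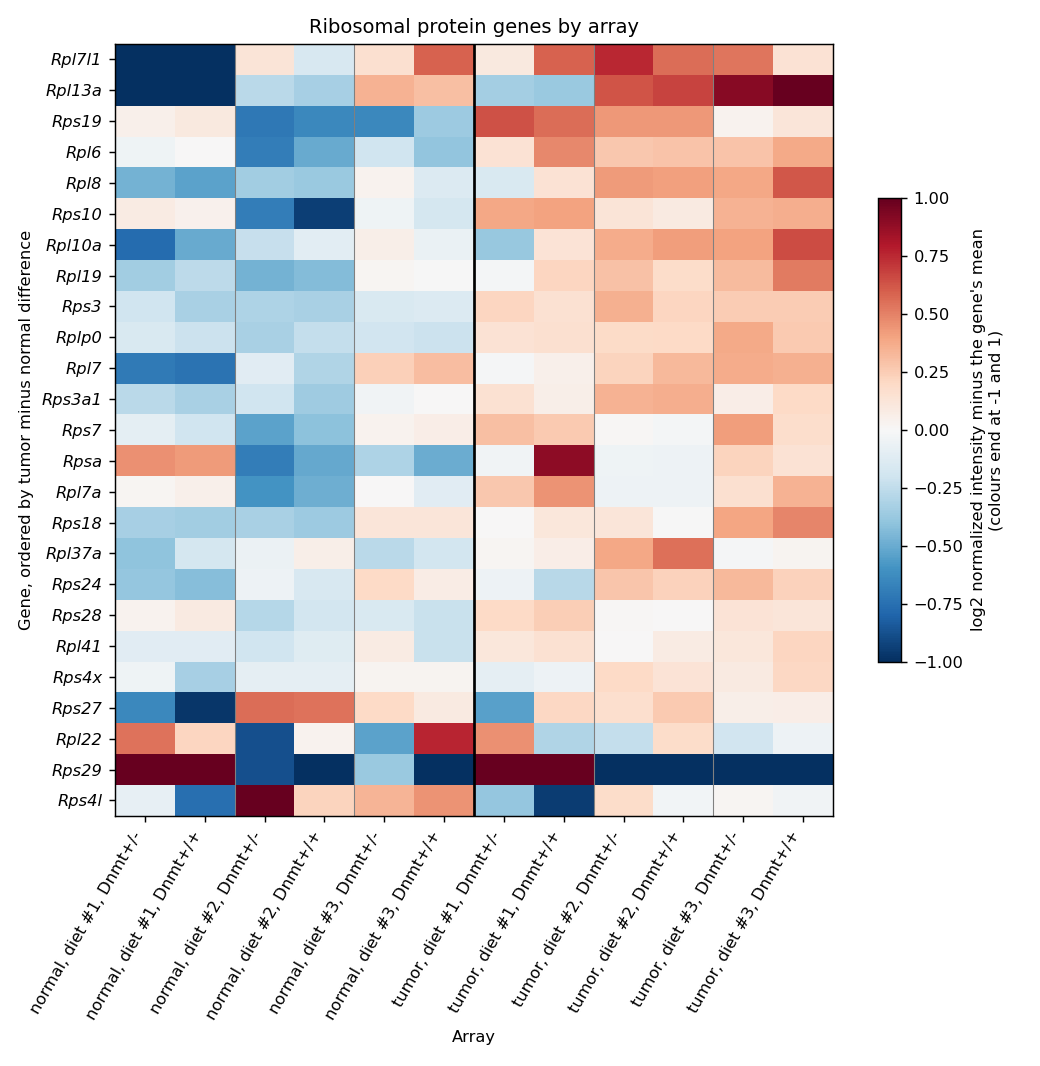
Heat map of the 25 tested genes (vertical axis, ordered by their tumor minus normal difference) over the 12 arrays (horizontal axis), coloured by log2 normalized intensity minus the gene's own mean, with colours ending at -1 and 1. The median gene lay at or below 0.02 on each normal array and between 0.10 and 0.25 on each tumor array.

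The rise was shared by both subunits. Of 12 large-subunit genes tested, 9 were higher and 0 lower, with a median difference of 0.47, and of 13 small-subunit genes 8 were higher and 1 lower, with a median of 0.37. When each gene was set to its own mean, the median large-subunit gene ran from -0.38 to 0.03 over the normal arrays and from 0.06 to 0.35 over the tumor arrays. The median small-subunit gene ran from -0.35 to 0.01 and from 0.09 to 0.21. Neither subunit's ranges overlapped between the tissues. Across the 12 arrays, which share tissue, diet and normalization, the medians of the large and the small subunit correlated at r = 0.84 as a description. The 34 tested probe sets that match a ribosomal protein gene and other genes, which are different probe sets, had 25 higher, 0 lower and a median of 0.44.

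Among large-subunit genes, Rpl13a, known also from a complex that silences translation in interferon-treated cells, rose most of those that passed. Its normalized intensity in the normal arrays was 383 and 424 in diet #1 (Dnmt+/- and Dnmt+/+), 835 and 799 in diet #2, and 1279 and 1237 in diet #3. In the tumor arrays it was 794 and 778, 1552 and 1600.3, and 1888 and 2115, in the same order. Each tumor array was above the normal array of its code, while the levels differed so much between diets that the tissues overlapped. The difference was 0.86 ± 0.08 (log2, SE, n = 6 arrays per tissue), or 1.81-fold, with an adjusted p of 9.54e-05.

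Rpl6 had a lowest, median and highest normalized intensity of 5607, 7397 and 9074 in normal intestine and of 10028, 11057 and 12618 in tumors. Every tumor array was above every normal array, and the difference was 0.61 ± 0.11 (adjusted p = 0.00247). Rpl8, which lies at the peptidyl transferase center where peptide bonds form, had 7603, 8595 and 11309 in normal intestine against 9917, 14528 and 17021 in tumors. Its 2 highest normal arrays, both of diet #3, reached above the Dnmt+/- tumor of diet #1, and the difference was 0.61 ± 0.09 (adjusted p = 0.00111). Rpl10a, the protein of the mobile L1 stalk that helps to release spent tRNA, ran from 4624 to 8193 in normal intestine and from 6051 to 12409 in tumors, with a difference of 0.54 ± 0.09 (adjusted p = 0.00193). Rpl19, near the exit of the peptide tunnel, ran from 9411 to 13256 and from 12939 to 18726, with a difference of 0.50 ± 0.09 (adjusted p = 0.00208). For both, the Dnmt+/- tumor of diet #1 was the only tumor array within the range of the normal arrays, and all 6 code pairs went up.

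Rplp0 is the base of the stalk that recruits elongation factors, and is often taken as a reference gene of constant level. Its lowest, median and highest intensities were 16039.9, 17235.5 and 17997.5 in normal intestine and 22094, 22961 and 26071 in tumors. The normal arrays lay within a narrow band and all tumor arrays stood above it, with a difference of 0.45 ± 0.07, or 1.36-fold (adjusted p = 0.00149). It was the one stalk protein gene with a member probe set.

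In the small subunit, Rps19, the gene most often mutated in the inherited anaemia named after Diamond and Blackfan, rose most. Its lowest, median and highest intensities were 3692, 4289 and 6484 in normal intestine and 6198, 8182 and 9411 in tumors. The normal arrays of diet #1 stood above the other 4 normal arrays and above the Dnmt+/- tumor of diet #3. The difference was 0.74 ± 0.11, or 1.67-fold (adjusted p = 0.00118), and all 6 code pairs went up, by 0.46 to 1.15. Of 7 tested genes known to be mutated in this anaemia, 5 were higher and 0 lower, the others being Rps10, Rps7, Rps24 and Rps28, while Rps27 and Rps29 did not pass. Among all 25 tested ribosomal protein genes 17 were higher (68%), so this share is not particular to the anaemia genes.

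Rps10, a protein that is tagged with ubiquitin when ribosomes collide, ran from 6037.5 to 12305.5 in normal intestine and from 12361.5 to 15291 in tumors. The tissues were separated by a narrow gap, with the normal arrays of diet #1 the highest of the normal arrays, and the difference was 0.57 ± 0.11 (adjusted p = 0.00342). Rps3, which lines the entry of the mRNA channel, had 9727, 10229 and 11092 as lowest, median and highest values in normal intestine against 13559, 14299 and 15552 in tumors. Its tissues were clearly apart, with a difference of 0.48 ± 0.07 (adjusted p = 0.00108). Rps3a1 was apart as well, with at most 12618 in normal intestine and at least 13079 in tumors, and a difference of 0.39 ± 0.10 (adjusted p = 0.0116).

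The other 7 genes that were higher had differences of 0.24 to 0.44. They were Rpl7 (0.44 ± 0.11), Rps7 (0.38 ± 0.08), Rpl7a (0.38 ± 0.08), Rps18 (0.37 ± 0.07), Rpl37a (0.34 ± 0.07), Rps24 (0.25 ± 0.07) and Rps28 (0.24 ± 0.07), with adjusted p from 0.00328 (Rps18) to 0.0267 (Rps24). All were higher in 6 of 6 code pairs, and for all of them the tissues overlapped. Rps24 did not pass when any of 6 arrays was left out, namely both Dnmt+/- arrays of diet #1 and the 4 arrays of diet #2 (limma adjusted p from 0.0552 to 0.0688), nor with the code as a block (0.0538). Rps28 did not pass without the Dnmt+/- normal or tumor array of diet #2 or the Dnmt+/+ normal array of diet #3 (limma adjusted p from 0.0545 to 0.0624). As folds they ran from 1.18 (Rps28) to 1.35 (Rpl7).

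**Figure D2:**
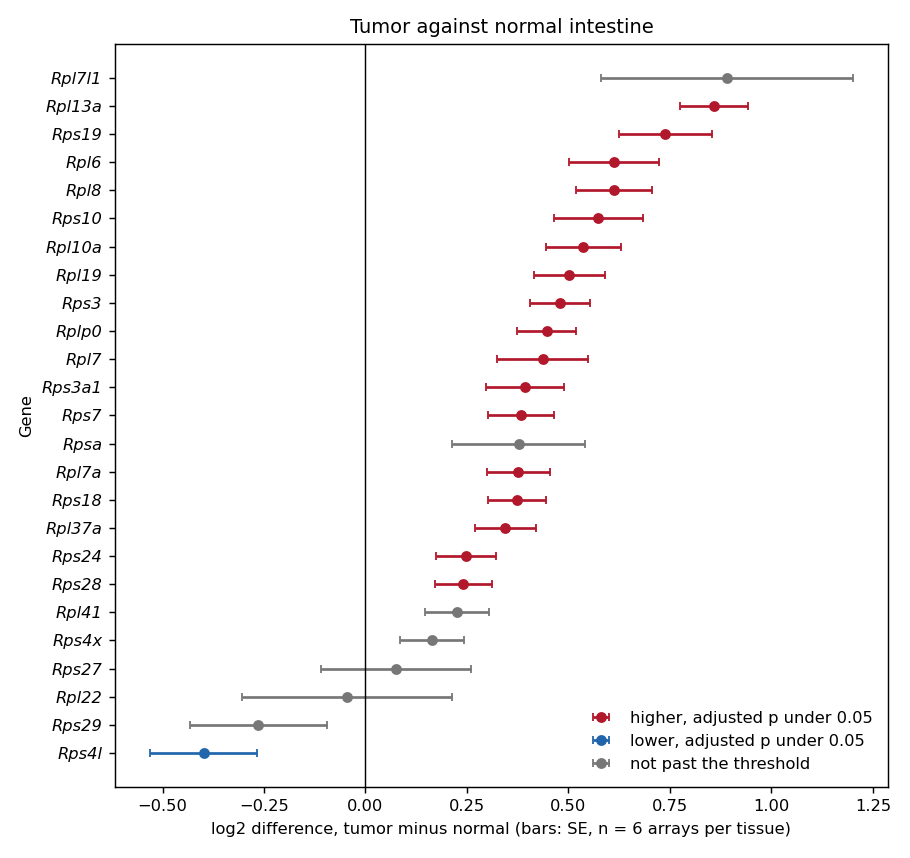
Tumor minus normal difference (horizontal axis, log2, points with SE bars, 6 arrays per tissue) of the 25 tested genes (vertical axis). The 17 genes in red were higher at an adjusted p under 0.05, with differences of 0.24 to 0.86, and Rps4l, in blue, was lower at -0.40.

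Of the 7 genes that did not pass, 5 had positive differences. Rpl41, the smallest ribosomal protein, had 0.23 ± 0.08 (adjusted p = 0.0524) and was higher in 6 of 6 code pairs. Rps4x, the X-linked form of Rps4, had 11476.5, 13801 and 14757 as lowest, median and highest values in normal intestine and 13559, 15614 and 16696 in tumors, a difference of 0.16 ± 0.08 (adjusted p = 0.143, 5 of 6 pairs, 95% interval -0.02 to 0.34). Rpsa, which also serves as a laminin receptor, had 7133 and 7012, 3217 and 3651, and 4203 and 3685 in the normal arrays of diets #1, #2 and #3, Dnmt+/- first. The tumor arrays had 5095 and 9681, 5047 and 5015.5, and 6092 and 5753. The tumor minus normal difference was -0.49 in the Dnmt+/- pair of diet #1 and 0.46 to 0.65 in the other 5 pairs, and over all arrays it was 0.38 ± 0.16 (adjusted p = 0.106). Without the Dnmt+/- tumor array of diet #1 it was 0.55 with an adjusted p of 0.00185. Rpsa passed in only this 1 of the 12 fits with an array left out, and in 2 of all 30 alternatives.

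Rpl7l1, a relative of Rpl7, had the largest difference of all, 0.89 ± 0.31, with an adjusted p of 0.05002, just short of passing. It rested on dim values, since its deposited intensity was 50, the floor of that file format, in both normal arrays of diet #1. The pairs ran from -0.45 (diet #3, Dnmt+/+) to 2.34 (diet #1, Dnmt+/+). Without the Dnmt+/+ normal array of diet #3 it passed, at 1.08 (adjusted p = 0.0242), and without the tumor array of the same code at 1.07 (adjusted p = 0.0265). Rps27 (0.08 ± 0.19), Rpl22 (-0.05 ± 0.26) and Rps29 (-0.26 ± 0.17) had no direction shared by the pairs.

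Rps4l was the one gene that was lower in tumors. RefSeq lists it as a transcribed pseudogene, a copy of Rps4, not as a gene for a protein. Its normalized intensity was 972 and 611, 2078 and 1199, and 1303 and 1406 in the normal arrays of diets #1, #2 and #3, Dnmt+/- first, and 788 and 531, 1165 and 1009, and 1044 and 1005 in the tumor arrays. Every tumor array was below the normal array of its code, and the levels overlapped. The difference was -0.40 ± 0.13 (adjusted p = 0.0420), and it did not pass when any of 7 of the 12 arrays was left out (limma adjusted p from 0.0757 to 0.0992). These were the Dnmt+/- normal arrays of diets #1 and #2, the Dnmt+/+ normal array of diet #3, the Dnmt+/+ tumor of diet #1, both tumors of diet #2 and the Dnmt+/- tumor of diet #3. A second probe set for Rps4l had -0.65 ± 0.24 (adjusted p = 0.0636).

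**Figure D3:**
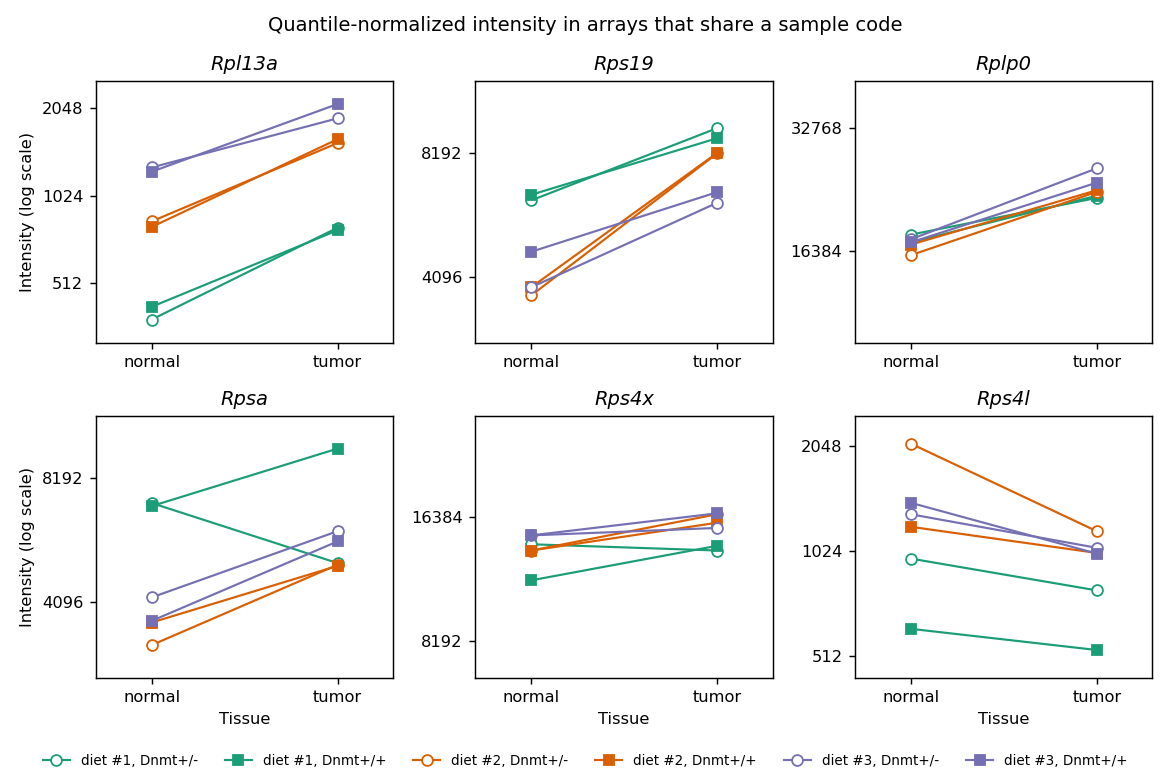
Quantile-normalized intensity (vertical axes, log scale) in the normal and tumor arrays (horizontal axes) of 6 genes, with a line per sample code, colours for diets and open (Dnmt+/-) or filled (Dnmt+/+) symbols for genotypes. All 6 lines rise for Rpl13a, Rps19 and Rplp0, 5 of 6 rise for Rpsa and Rps4x, and all 6 fall for Rps4l.

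Several genes had more than 1 probe set past the filter, which are separate readings of the gene. The second probe set of Rpl10a gave 0.41 ± 0.08 (adjusted p = 0.00419) and that of Rps28 gave 0.50 ± 0.08 (adjusted p = 0.00152), both in the direction of the first. For Rps24 the brighter probe set gave 0.25 and the dim one -0.14 ± 0.19, and for Rpl22 they gave -0.05 and 0.20 ± 0.41, so that the sign differed between probe sets. Ribosomal protein genes have many near-identical pseudogene copies, and a probe set can take signal from them. Some names of probe sets also carry the maker's marks for shared sequence or a gene family, as for Rpl7, Rpl41, Rps28, Rps4l and the second probe set of Rpl10a. The brighter probe set of Rps24 carries the mark for relaxed rules of probe choice.

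The 18 member probe sets that were too dim to be tested included all those of 10 genes, Rpl32, Rpl35a, Rpl38, Rpl39, Rpl39l, Rps13, Rps14, Rps15, Rps20 and Rps27l. Most code for proteins that every ribosome is known to hold, so a dim probe set does not show that its gene was silent. For 16 of the 18, all 4 arrays of diet #1 were listed at 50, and in diets #2 and #3 the median deposited intensity ran from 13.4 to 119. Rps27l, a p53-induced relative of Rps27, stood apart within this group. Its deposited intensity was 570 and 524 in the normal and tumor Dnmt+/+ arrays of diet #1, 89.6 and 72.4 in the Dnmt+/- arrays of that diet, and between 8.4 and 31.5 in the 8 arrays of diets #2 and #3. With no filter on dim probe sets, 18 of 35 genes were higher and 0 lower, against 11.8% and 10.5% of all features.

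The size of the rise depended on how the arrays were scaled. Quantile normalization gives every array the same distribution, and other scalings moved the median of all features off 0, to 0.09 with a trimmed mean, to 0.13 as deposited and to -0.10 with the median of each array. The median of the ribosomal protein genes was 0.29, 0.35 and 0.10 in the same order, which is 0.20, 0.22 and 0.20 above all features, against 0.38 with quantile normalization. With 26, 25 and 26 genes past the filter, the count of genes higher fell from 17 to 14, 10 and 5, and that of genes lower was 0, 0 and 1. Over all features 23.3%, 21.2% and 13.2% were then higher and 14.9%, 11.4% and 24.2% lower. Rpl13a, Rps19, Rpl8, Rpl6 and Rps10 were the 5 genes still higher with median scaling, while Rpl37a (-0.02), Rps24 (-0.05) and Rps28 (-0.01), which were higher with quantile normalization, had a negative difference there, as had Rpl41 (-0.02) and Rps4x (-0.07). As a share of each array's summed deposited intensity, which is itself a scaling to the array total, the 25 genes held 2.15% to 2.66% in the normal arrays and 2.70% to 3.30% in the tumor arrays, with no overlap.

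**Figure D4:**
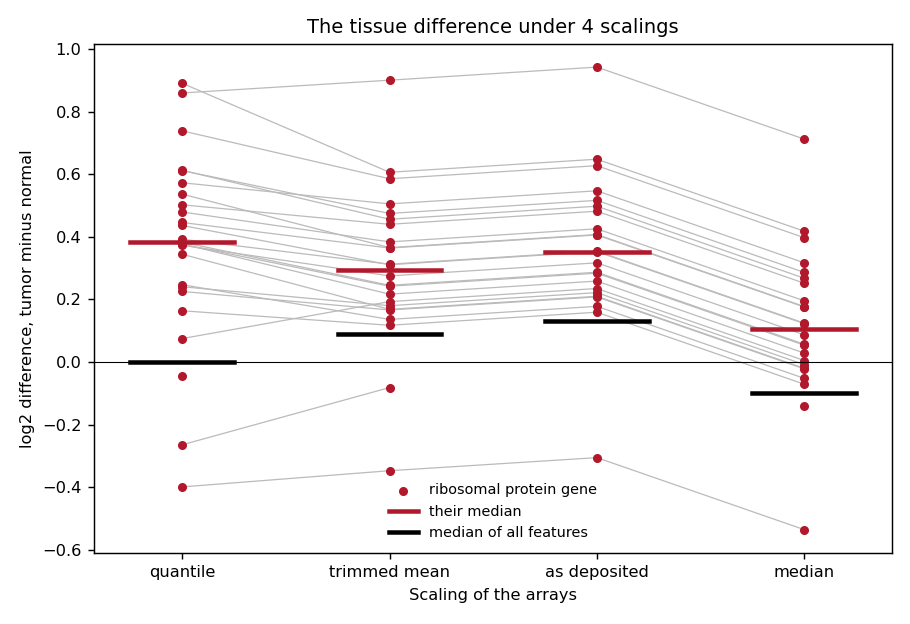
Tumor minus normal difference (vertical axis, log2) of the tested ribosomal protein genes (red points, joined by gene) under 4 scalings of the arrays (horizontal axis), with their median (red bar) and the median of all features (black bar). The red bar lies above the black bar by 0.38 with quantile normalization and by 0.20, 0.22 and 0.20 with the other scalings.

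The median difference was above 0 within each diet and each genotype, though few genes passed at those sample sizes. The median of the ribosomal protein genes was 0.35 within diet #1, 0.48 within diet #2 and 0.29 within diet #3, and it was 0.37 among the Dnmt+/- and 0.43 among the Dnmt+/+ arrays. Within the diets 0, 7 and 0 genes passed as higher, and within the genotypes 0 and 1. Over all features 0.576%, 10.2% and 4.62% passed as higher within the diets, and 1.62% and 3.15% within the genotypes. Without the 4 diet #2 arrays 10 genes were higher, with a median of 0.33, among 10.9% of all features. These arrays include the 2 normal samples that carried transcripts of exocrine pancreas, whose 12 marker genes held 2.65% and 3.34% of the summed intensity there and 0.257% to 0.294% on each of the other 10 arrays. Zg16, among the 12, was bright in both tissues (mean log2 14.50 in normal intestine, 14.40 in tumors) and level between diets #3 and #2 (-0.05). Much of the share on the other 10 arrays is therefore Zg16. With all 12 markers left out of the sums, the ribosomal protein share was 2.16% to 2.66% in normal arrays and 2.71% to 3.31% in tumors. Both ends of that normal range lie on arrays of the other diets. On the diet #2 normal arrays the share went from 2.19% to 2.25% (Dnmt+/-) and from 2.29% to 2.37% (Dnmt+/+). Other pancreas RNA stayed in the sums.

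Other markers moved with tissue as well. The summed normalized intensity of 7 genes of tumor epithelium, 6 of them higher, ran from 4420 to 5630 in normal intestine and from 31388 to 38576 in tumors. That of 19 cell cycle genes, 16 of them higher, ran from 9907 to 12943 and from 14976 to 22017. Lymphoid genes had 4 of 8 lower and 10 enterocyte genes 1 higher and 3 lower. Among all features 18.2% were higher and 16.9% lower. The ratio of the 3′ to the 5′ actin control, a sign of RNA quality, was 1.15 to 1.38 in normal arrays and 1.13 to 1.29 in tumors. For the Gapdh control it was 0.89 to 1.19 and 0.91 to 1.21. The tumor array had the higher ratio in 1 of 6 code pairs for actin and in 5 of 6 for Gapdh. The part of cell type makeup, cell division and RNA quality in the ribosomal protein result was not tested.

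The rest of the translation apparatus was read from lists chosen by function. Of 28 genes for ribosome assembly in the nucleolus, 22 were higher and 0 lower, with a median of 0.72, led by Tsr1 (1.54 ± 0.13), which acts in maturation of the small subunit, the nucleolar GTPase Gnl3 (1.36 ± 0.20) and Nhp2 (1.34 ± 0.10), a part of the RNA-modifying snoRNPs. Of 33 initiation factors 14 were higher and 0 lower (median 0.27), with Eif4g3 (1.11 ± 0.21), the poly(A)-binding protein gene Pabpc1 (0.94 ± 0.08) and Eif3d (0.73 ± 0.10) in front. Of 20 tRNA synthetases 12 were higher and 0 lower (median 0.46), led by Hars (1.19 ± 0.28), Farsa (1.00 ± 0.33) and Vars (0.99 ± 0.17). Among 6 genes listed with the elongation factors, Eef1d (0.55 ± 0.09) and Eef2 (0.29 ± 0.09) were higher. That list also holds the mitochondrial factor Tufm and Tpt1, which is not itself an elongation factor. Among 12 regulators of translation and ribosome production 3 were higher and 2 lower, with Eif4ebp1 at 1.22 ± 0.30, Myc at 1.21 ± 0.25 and the S6 kinase gene Rps6kb2 at -1.08 ± 0.21. The counts of these lists stand against 18.2% higher and 16.9% lower among all features, and those of the 12 regulators are not far from these shares.

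The ribosomal proteins of mitochondria are a separate set of nuclear-coded genes. Of 57 tested, 2 were higher and 9 lower, with a median of -0.02. Among all features 18.2% were higher and 16.9% lower, so the share of this set that was lower is near that of all features. Those with the largest differences were Mrps36 (-0.72 ± 0.09), Mrpl11 (0.65 ± 0.21) and Mrps15 (-0.52 ± 0.09). The difference between the cytosolic and the mitochondrial set was not tested, and each list is described by its counts and median only.

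No ribosomal protein gene passed the test for Dnmt genotype. With limma, the sample code as a random block and tissue and diet in the model, 0 of 25 genes passed, where 3 of 6400 features did (0.0469%). At an unadjusted p under 0.05 there were 2 of 25 genes and 451 of 6400 features, and no other tool was run. The median difference, Dnmt+/- minus Dnmt+/+, was -0.0019. The smallest p-values were those of Rps29 (0.65 ± 0.15, adjusted p = 0.641) and Rps4l (0.36 ± 0.12, adjusted p = 0.698). Next came Rpl10a (-0.18 ± 0.08), Rpl37a (-0.11 ± 0.07) and Rps24 (0.11 ± 0.07), the last 2 with 1 direction in 6 of 6 matched comparisons. On their other tested probe sets Rps29 gave -0.08, Rps4l -0.37 and Rpl10a 0.02, each of the opposite sign. Rps24 gave 0.02 there, of the same sign.

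Apart from these 5, the genotype differences ran from -0.28 (Rpl22) to 0.07 (Rps10). For Rplp0 the difference was 0.01 ± 0.06, with a 95% interval of -0.13 to 0.16, and for Rpl13a it was -0.04 ± 0.07 with an interval of -0.20 to 0.13. Neither interval reaches the tissue difference of the same gene. This did not hold for every gene, as the interval of Rps24 (-0.039 to 0.253) includes its tissue difference of 0.247. That of Rps4x (-0.13 to 0.19) includes 0.16. The negative block correlation (-0.16) narrows the genotype intervals. For Rps29 the values were dim outside diet #1, with 5 of 12 arrays at the floor. The test of whether the tumor minus normal difference differed between genotypes called 0 of the 25 genes and 0 of 6400 features (0%) with limma, and at an unadjusted p under 0.05 there were 0 genes and 139 features. The smallest p-values among the genes were those of Rps29 (-0.56 ± 0.32), Rpl8 (-0.26 ± 0.19), Rpl22 (0.69 ± 0.55), Rps27 (-0.43 ± 0.37) and Rpl10a (-0.18 ± 0.20), each the Dnmt+/- minus the Dnmt+/+ tissue difference.

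Diet #3 and diet #2, whose arrays share a file format, differed in 6 ribosomal protein genes. The 4 arrays of a diet came from a Dnmt+/- and a Dnmt+/+ sample code. The ending of the code differed between the diets, and diet cannot be told apart from what that ending stands for. Rpl13a (0.48 ± 0.09, adjusted p = 0.0159), Rps10 (0.48 ± 0.12, 0.0352), Rps18 (0.43 ± 0.08, 0.0149), Rps7 (0.41 ± 0.09, 0.0236) and Rpl7a (0.40 ± 0.08, 0.0236) were higher in diet #3, where 5.69% of all features were. Rpl37a was lower (-0.34 ± 0.08, adjusted p = 0.0321), as were 3.59% of all features. The median of the 25 genes was 0.15 and that of all features 0.02. Each of the 6 genes had the same direction in all 4 comparisons matched for tissue and genotype, tumors included. So had Rpl19, Rpl7, Rpsa, Rpl6, Rpl10a and Rplp0 (higher) and Rps27 (lower), which did not pass. The calls came from these same arrays, and the share of all features with such agreement was not computed.

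Rps18, a protein of the head of the small subunit, had normalized intensities of 14183 and 13774 in the normal and 19332.5 and 17643 in the tumor arrays of diet #2. In diet #3 it had 19332.5 in both normal arrays and 23309 and 24884 in the tumors. The normal arrays of diet #3 reached the level of the tumors of diet #2, and the tumors of diet #3 stood above all others. Rps7 had 7055 and 7696 in normal and 10295 and 10097 in tumor arrays of diet #2 against 10497 and 10696, and 13686 and 11559, in diet #3. Rpl37a went the other way between diets but not between tissues, with 4394 and 4758 in normal and 5981 and 6688 in tumor arrays of diet #2 against 3794 and 4030.1, and 4533 and 4664, in diet #3.

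**Figure D5:**
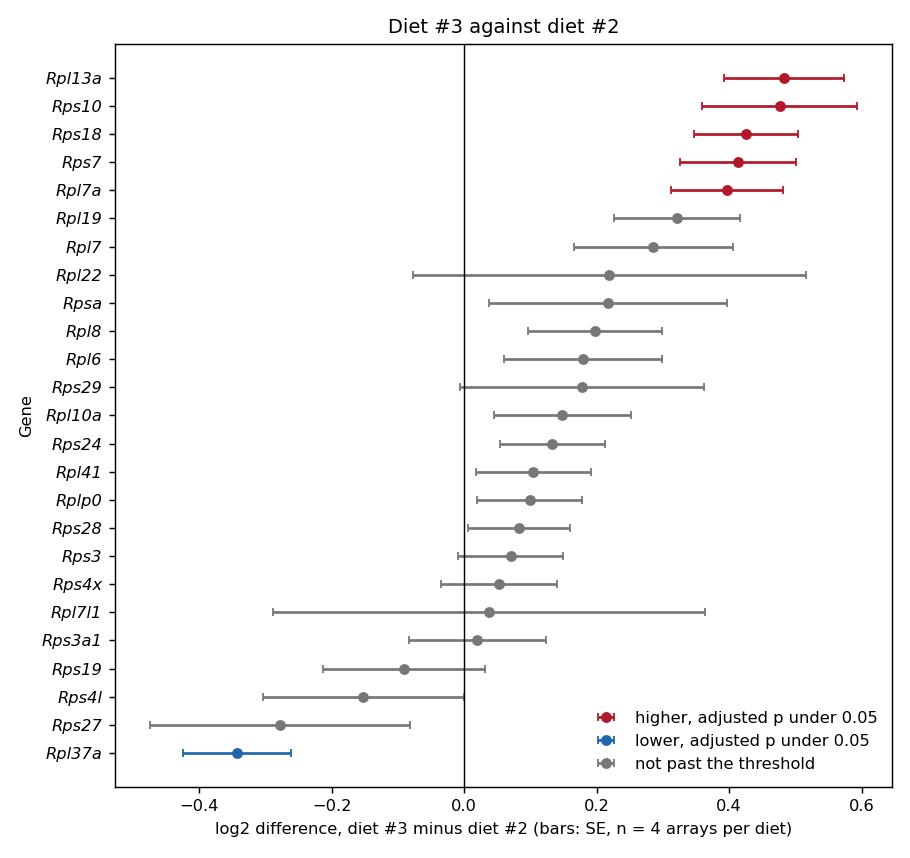
Diet #3 minus diet #2 difference (horizontal axis, log2, points with SE bars, 4 arrays per diet) of the 25 tested genes (vertical axis). The 5 genes in red were higher in diet #3 by 0.40 to 0.48 and Rpl37a, in blue, was lower by -0.34.

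The diet calls depended on single arrays and on the block, and they numbered 6 with the code as a random block, 2 without it and 0 on the values as deposited, while without the 4 diet #1 arrays they numbered 9 of 26 genes tested. Without the Dnmt+/- normal array of diet #3 there were 0, and there were 2 without the Dnmt+/- and 3 without the Dnmt+/+ normal array of diet #2, the arrays with pancreas transcripts, and 3 without the Dnmt+/+ normal array of diet #3. For these alternatives the share of all features called was not computed. The block correlation was negative (-0.16), which narrows the SE of a difference between codes, so the block makes diet calls more readily. The test of whether the tissue difference differed between these diets called 0 of the 25 genes, where 0.359% of all features were called with limma. The smallest p-values belonged to Rps19 (-0.53 ± 0.18, unadjusted p = 0.0218, limma adjusted p = 0.370), Rps3a1 (-0.48 ± 0.17), Rps10 (-0.46 ± 0.18), Rpl7 (-0.39 ± 0.18) and Rpl7l1 (-0.71 ± 0.35), all negative, meaning a smaller tumor minus normal difference in diet #3. At an unadjusted p under 0.05 there were 3 of 25 genes and 684 of 6400 features.

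Comparisons with diet #1 cannot be told apart from the file format. The 4 arrays of diet #1 were deposited with a mean intensity of 306 to 403 and a floor at 50, where the other 8 had a mean of 1000 and no floor. Between diets #3 and #1, 13 of 25 genes passed (55.9% of all features), 10 higher and 3 lower, and between diets #2 and #1, 16 of 25 (54.3% of all features), 9 higher and 7 lower. The 5 genes of smallest p against diet #3 were Rps29 (-3.79 ± 0.18), Rpl13a (1.49 ± 0.09), Rpl10a (0.64 ± 0.10), Rps24 (0.49 ± 0.08) and Rpl7 (0.67 ± 0.12). Against diet #2 they were Rps29 (-3.96 ± 0.18), Rpl13a (1.01 ± 0.09), Rps4l (0.89 ± 0.15), Rpl7a (-0.49 ± 0.08) and Rps10 (-0.58 ± 0.12). The Rps29 probe set, counted in both, passed the brightness filter only through its diet #1 arrays (normalized 558 to 1090, at most 101 elsewhere). Its difference from diet #1 was thus set in part by the filter.

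Rps29 had opposite readings on its probe sets. On one, the deposited intensity was 276 to 418 in diet #1 and 11.2 to 121 in the other 8 arrays, although those arrays were scaled brighter. On the other, it was 50 in all 4 diet #1 arrays and 176 to 258 in the other 8. The first was thus high and the second low in diet #1. Beyond its place in the counts above, no direction between diet #1 and the others was read from this gene.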

How the data were processed

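The data are 12 Affymetrix MG_U74Av2 arrays, read in a single colour, of tumors and normal intestine. The authors deposited 1 linear intensity per probe set and array, for 12488 probe sets, and which software made them from the probes was not given in the sources used. After 66 control probe sets were removed, intensities were quantile-normalized, raised to a floor at the 20th percentile (44.8) and taken to log2. The 40% of probe sets with the lowest mean were dropped, then the brightest remaining one of each gene was kept, which gave 6400 features, 5648 of them named. Gene symbols came from the platform annotation, with 10817 of 10833 matched to RefSeq GRCm38.p6 by Entrez ID, which changed 0 symbols.

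Linear models for tissue, genotype and diet were fitted with limma 3.58.1 (R 4.3.3), with Benjamini-Hochberg adjustment over all features, at a threshold of 0.05. For genotype, diet and interactions the sample code was a random block (correlation -0.16; 0.04 for tissue by diet). Arrays of a code correlated at 0.46 to 0.68 in their deviations from the tissue means and at -0.57 to -0.38 once diet and genotype were removed. Each code holds 1 diet and 1 genotype, so removing these takes out most of what the arrays of a code share. The second correlation therefore cannot decide whether the pairing matters. Tissue was tested without the block, and with the code as a fixed block 16 genes were higher and 1 lower. The closest pair of arrays within a tissue correlated at 0.982, and no array was counted as a repeat.

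The ribosomal protein genes and the other lists were chosen with earlier results of these data known. Named genes were the 10 largest increases and decreases past the threshold for tissue, the 5 of smallest p for each other contrast, and up to 3 per other list. The other genes were named after their values were seen. The fits were tested on simulated data, where the share of false calls lay above the 0.05 threshold in each comparison and most changes of the smallest size went uncalled. Alternatives were other scalings, floors and filters, every probe set, trended robust variances, the block, and arrays, diets or genotypes left out. Promoter windows were RefSeq's.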

Additional observations from a re-analysis of the deposited data

Results flagged for a closer look

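In the groups of 6 arrays per tissue, 1 array stood apart from the other 5 by Dixon's criterion for 4 of 50 combinations of gene and tissue, where chance gives about 1 in 20. Rpsa reached 13.2409 (log2) in the Dnmt+/+ tumor of diet #1, against 12.2922 to 12.5727 in the other tumors. Rpl41 reached 14.9516 in the Dnmt+/- normal array of diet #3, against 14.6418 to 14.7568. Rps4x was at 13.4864 in the Dnmt+/+ normal array of diet #1, against 13.727 to 13.8491. Rps27 was at 8.5063 in the Dnmt+/- tumor of diet #1, against 9.1088 to 9.306. Of the 4 arrays, 3 were of diet #1, whose values come in the other file format.

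For 2 genes both code pairs of a diet went one way and both pairs of another diet the opposite way, a difference that was not tested. The tumor minus normal difference of Rpl22 was lower in diet #1 than in diet #2 by -0.6927 (log2). That of Rps27, a zinc-binding small-subunit protein, was higher in diet #1 by 0.9826 than in diet #2 and by 0.7244 than in diet #3.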

How the results depend on the processing

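The tissue median of the ribosomal protein genes stayed positive in all 30 alternatives. It was 0.10 with median scaling, 0.25 with no filter and 0.48 within diet #2, and 0.36 to 0.40 with each array left out in turn. The genes higher in tumors numbered 5 with median scaling, 10 as deposited, 10 without diet #2, 0, 7 and 0 within diets #1, #2 and #3, and 0 and 1 within Dnmt+/- and Dnmt+/+, against 17, and 15 to 18 with each array left out. Of all features, 13.2%, 21.2%, 10.9%, 0.576%, 10.2%, 4.62%, 1.62% and 3.15% were higher in the same order, against 18.2%. With each array left out that share was 14.9% to 17.8%. The count of genes lower was 0 in place of 1 with the trimmed mean, as deposited, with no filter, without each diet, within each diet and within each genotype, and 0 to 1 with each array left out. With the code as a fixed replicate block for tissue, 16 genes were higher and 1 lower, the lost call being Rps24 (adjusted p = 0.0538). With median scaling, Rpl37a (-0.0198), Rps24 (-0.0519) and Rps28 (-0.00806) turned negative.

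The genotype count was 0 in each of 25 alternatives, and 0 to 0 with each array left out, while the genotype median was -0.0732 with median scaling, -0.0411 with the trimmed mean, -0.154 as deposited, -0.0520 without diet #2, and -0.0446 to 0.0035 with each array left out. For diet #3 against #2 there were 0 calls as deposited, 2 without the replicate block, 9 without diet #1 and 0 to 7 with each array left out, with a median of 0.10 to 0.19. Dim probe sets limit what can be said of 10 of the 35 genes, and a fold between 2 values near the floor is understated. Within a diet or genotype the arrays are few, and a gene that did not pass there is not shown to be unchanged.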

Other observations

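The ribosomal RNA control probe sets of the array, which are not members, followed the file format. The 3′ probe set for 18S rRNA had a deposited intensity of 50.1 to 76.4 in the 4 diet #1 arrays and of 380 to 632 in the other 8. Within diets #2 and #3 it was 395 to 549 in normal intestine and 380 to 632 in tumors, with overlap. The gene Fau, whose product is a small-subunit protein made as a fusion and whose name does not follow the Rpl and Rps scheme, was tested as well and did not pass (-0.33 ± 0.33, adjusted p = 0.472).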
